A study of Mus musculus with 9 samples.

Results

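The genes described here were 8 genes of the podocyte and its filtration slit: Nphs1, Magi2, Cd2ap, Podxl, Synpo, Nes, Ptpro and Wt1. They were taken by symbol from a table of 32593 genes, and each symbol matched 1 row. RNA-seq had been done on kidneys of AngII-treated mice in 9 libraries, 3 in each of 3 groups, for a study whose title concerns STING, ACSL4 and hypertension-associated chronic kidney disease. AngII stands for angiotensin II, the vasoconstrictor peptide of the renin-angiotensin system. CDH16KO-AngII mice had the genotype CDH16 Cre+/Tmemfl/fl, GRPR-AngII mice CDH16 Cre+/GRPRfl/fl and AngII mice Tmemfl/fl with no Cre named. Every group thus carried a floxed allele and received AngII, and what AngII itself does is not analysed here. Cdh16 encodes a cadherin of kidney tubule epithelium, and the sources used here do not say whether the Cre was active in podocytes. They also do not give the dose of AngII, its duration or the age of the mice.

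Podocytes are the epithelial cells that wrap the glomerular capillaries, and their interlocking foot processes leave slits through which the filtrate passes. The slit is bridged by the slit diaphragm, a cell junction built from nephrin and its partners and tied through adaptor proteins to the actin cytoskeleton of the foot process. Loss of these proteins in mice or humans is known to cause protein leak into the urine, and the genes are in common use as markers of podocyte number and differentiation. The RNA came from whole kidney, in which podocytes are a small share of the cells. In such samples fewer podocytes and less RNA per podocyte cannot be told apart.

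Promoter sequence from RefSeq (GRCm38.p6) was examined for 5 of the 8 genes. It is shown because Wt1 is both one of the genes and a regulator of several others. Capitals mark a letter match on either strand to GNGTGGGNG, a form of the WT1 zinc finger site, or to CANNTG, the E-box bound by the podocyte factor Tcf21. The lines give sequence before the annotated start on the plus strand, except that of Nphs1, where the whole window lies within an annotated exon and a 27-base site is given.
Nphs1, chr7:30459822-30459848: agtacctgtGAGTGGGTGagagggagg
Magi2, chr5:19226796-19227035: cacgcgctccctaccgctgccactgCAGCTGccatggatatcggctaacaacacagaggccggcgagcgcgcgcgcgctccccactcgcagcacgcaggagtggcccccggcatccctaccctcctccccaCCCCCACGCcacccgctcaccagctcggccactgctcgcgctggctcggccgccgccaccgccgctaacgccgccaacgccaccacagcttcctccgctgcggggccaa
Nes, chr3:87970843-87971077: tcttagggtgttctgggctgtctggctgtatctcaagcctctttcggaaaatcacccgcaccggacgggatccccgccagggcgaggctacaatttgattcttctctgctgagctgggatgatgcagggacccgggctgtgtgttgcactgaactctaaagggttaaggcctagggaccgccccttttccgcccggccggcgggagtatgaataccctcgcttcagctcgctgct
Ptpro, chr6:137252049-137252298: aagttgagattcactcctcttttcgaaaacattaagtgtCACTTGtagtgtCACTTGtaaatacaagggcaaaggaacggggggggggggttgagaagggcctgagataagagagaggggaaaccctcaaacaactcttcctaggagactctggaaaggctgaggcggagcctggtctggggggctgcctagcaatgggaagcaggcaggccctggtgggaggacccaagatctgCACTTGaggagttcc
The Nphs1 and Magi2 sequences held 1 match each to the WT1 form. A match of that form was present in 12.7% of 32841 promoter windows of 250 bases. Ptpro held 3 E-boxes and Magi2 held 1, and at least 1 E-box was present in 66.2% of the windows. The Nes sequence held neither. Of the windows not shown, that of Cd2ap, mostly annotated exon, held 1 match to the WT1 form and 2 E-boxes, and that of a second Magi2 start held 1 E-box. The 250-base window of Magi2 was 72.0% G and C, against a median of 52.4% over all windows. These matches are letters in a window and not sites of measured binding.

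Library totals lay between 40731748 and 60449117 counts, and the 8 genes together took 14149 to 22230 counts per library. Mitochondrial transcripts made up 16.11% to 26.4% of each total. The floxed gene is written only as Tmem in the labels. Sting1, formerly Tmem173 and named by its protein in the study title, stood at 2.15, 2.24 and 2.04 CPM (counts per 1000000 of the TMM-scaled library size) in CDH16KO-AngII, at 2.90, 2.90 and 2.68 CPM in GRPR-AngII and at 4.62, 1.77 and 5.33 CPM in AngII kidneys. The library labelled AngII 2 thus lay below every CDH16KO-AngII library, although its label names no Cre. At a filter of 0.1 FPKM the log2 fold change of Sting1 was −0.86 in CDH16KO-AngII against AngII (SE 0.36, edgeR adjusted p = 0.604). For GRPR-AngII, whose label names no Tmem allele, it was −0.45 against AngII (SE 0.35, edgeR adjusted p = 0.857). Whether AngII 2 was mislabelled was not tested. Fold changes and edgeR counts against AngII are therefore also given without that library. Of the podocyte markers, Nphs1, Podxl, Synpo and Wt1 were each present in every library, at values given below. Kap, an abundant proximal tubule RNA, averaged 21800 CPM in CDH16KO-AngII kidneys, 31700 CPM in GRPR-AngII kidneys and 24700 CPM in AngII kidneys. Its SD was 2480, 7920 and 2790 CPM in the same order (n = 3 each). Of 12 proximal tubule markers, 3 were higher and 9 lower in CDH16KO-AngII than in AngII (51.9% of all genes were higher). In GRPR-AngII against AngII, 8 were higher and 4 lower (49% of all genes were higher). The smallest edgeR adjusted p was 0.506 and 0.778 in these comparisons.

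Per length, the genes differed far more from each other than between groups. On the deposited FPKM scale (fragments scaled to transcript length and library size), Podxl averaged 18.8 over the 9 libraries, Nphs1 5.08, Synpo 4.63, Cd2ap 3.67, Nes 3.46, Ptpro 1.38, Wt1 1.31 and Magi2 0.44. Podxl lay above Nphs1 in 9 of 9 libraries, Nes above Ptpro in 9 and Wt1 above Magi2 in 9. The neighbours between them did not separate as well. Nphs1 exceeded Synpo in 7 of 9 libraries, Synpo exceeded Cd2ap in 8, Cd2ap exceeded Nes in 6 and Ptpro exceeded Wt1 in 6. Podxl alone made up 42.0% to 54.1% of the summed FPKM of the 8 genes. The annotated exons of Cd2ap span 15864 bases, the longest of the set, against 5488 bases for Podxl, and an FPKM is scaled to length. Magi2 did not reach an FPKM of 1 in any library, so 7 of the 8 genes entered the main test.

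Nphs1 encodes nephrin, the adhesion protein whose extracellular chains span the slit (ENSMUSG00000006649, GRCm38 chromosome 7, 30458315 to 30487223). It stood at 42.4, 41.3 and 38.3 CPM in CDH16KO-AngII kidneys, at 33.9, 40.4 and 49.2 CPM in GRPR-AngII kidneys and at 39.1, 36.7 and 43.5 CPM in AngII kidneys. The groups overlapped throughout, and the lowest and the highest value both came from GRPR-AngII. The log2 fold change was 0.03 in CDH16KO-AngII against AngII (SE 0.15, edgeR adjusted p = 0.95) and 0.05 in GRPR-AngII against AngII (SE 0.15, edgeR adjusted p = 0.95). Its sign turned in all 3 comparisons without scaling factors. Nphs1 shares 597 exonic bases with the antisense gene Nphs1os, which had at most 0.0965 CPM, and 183 bases with the opposite-strand pseudogene Rps12-ps4, at 8.07 to 20.8 CPM. No source used here says whether counting used strand, so reads of the shared bases cannot be assigned.

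Cd2ap encodes an adaptor that joins nephrin to actin regulators, and it is also expressed outside podocytes (ENSMUSG00000061665, chromosome 17, 42792951 to 42876389). It stood at 74.7, 64.5 and 74.2 CPM in CDH16KO-AngII kidneys, at 62.3, 72.0 and 63.4 CPM in GRPR-AngII kidneys and at 77.7, 68.4 and 73.0 CPM in AngII kidneys. It was the steadiest of the 8 genes, with a coefficient of variation of 7.95% over the 9 libraries and a highest value 1.25 times the lowest. The groups overlapped. The log2 fold change was −0.04 in CDH16KO-AngII against AngII (SE 0.12, edgeR adjusted p = 0.93) and −0.15 in GRPR-AngII against AngII (SE 0.12, edgeR adjusted p = 0.802).

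Magi2 encodes a scaffold protein that binds the nephrin tail (ENSMUSG00000040003, chromosome 5, 19227036 to 20704792). It was the gene that varied most, with a coefficient of variation of 40.8% and a highest value 4.58 times the lowest. It stood at 8.46, 8.65 and 5.62 CPM in CDH16KO-AngII kidneys, at 5.63, 5.63 and 6.48 CPM in GRPR-AngII kidneys and at 2.89, 8.97 and 1.96 CPM in AngII kidneys. The AngII group held both the highest and the 2 lowest libraries of the series. The means were 7.58 ± 1.70 CPM in CDH16KO-AngII kidneys, 5.91 ± 0.489 CPM in GRPR-AngII kidneys and 4.61 ± 3.81 CPM in AngII kidneys (SD, n = 3 each). In counts the AngII libraries held 162, 477 and 86, so counting error is small beside these differences. At a filter of 0.1 FPKM the log2 fold change was 0.71 in CDH16KO-AngII against AngII (SE 0.46, 95% interval −0.31 to 1.72, edgeR adjusted p = 0.738). The other comparisons gave 0.36 for GRPR-AngII over AngII (SE 0.46, edgeR adjusted p = 0.922) and −0.35 for GRPR-AngII over CDH16KO-AngII (SE 0.46, edgeR adjusted p = 1.0). At that filter edgeR called 0.0945% of 20110 genes in CDH16KO-AngII against AngII, 0% in GRPR-AngII against AngII and 0.0746% in GRPR-AngII against CDH16KO-AngII, and Magi2 was not among them. Exact two-sided permutation tests gave p = 0.4 in each comparison, where the smallest that 3 against 3 libraries allow is 0.1. Without AngII library 2 the value was 1.65 in CDH16KO-AngII against AngII (SE 0.303, edgeR adjusted p = 0.14). For GRPR-AngII against AngII it was then 1.30 (SE 0.299, edgeR adjusted p = 0.999). Both values were large beside their SE, and only the p adjusted over 20110 genes is given for them. Without AngII library 3 the log2 fold change was 0.34 (SE 0.412) and 0.00 (SE 0.41) in the same 2 comparisons. The Magi2 value thus turned on which AngII library was kept.

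The 2 AngII libraries low in Magi2 were those high in Sting1, and this pairing was looked at after the values were seen. AngII libraries 1 and 3 had 4.62 and 5.33 CPM of Sting1, above the 1.77 to 2.90 CPM of the other 7 libraries. A sum of 12 macrophage and leukocyte markers, also chosen after the Magi2 values were seen, was 145, 133 and 226 CPM in CDH16KO-AngII kidneys, 230, 200 and 185 CPM in GRPR-AngII kidneys and 220, 137 and 263 CPM in AngII kidneys. Magi2 was highest in the 3 libraries where that sum was lowest, CDH16KO-AngII 1 and 2 and AngII 2. Across the 9 libraries Magi2 correlated with the mean log2 CPM of the 7 markers that passed the filter at Pearson's r = −0.86 and Spearman's rho = −0.88 (exact permutation p = 0.000557 and 0.00308; adjusted over 4 relations of Magi2, 0.00195 and 0.0123). The r was −0.90 without the 2 libraries farthest from the median and −0.85 within groups. Markers and gene were picked for this pattern, so these p-values are not independent support, and the part of leukocyte RNA in the Magi2 values was not tested. The neighbouring genes Gnai1 and Phtf2 ranged over 34.9 to 44.7 CPM and 5.69 to 9.89 CPM, with highest values 1.28 and 1.74 times the lowest.

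**Figure D1:**
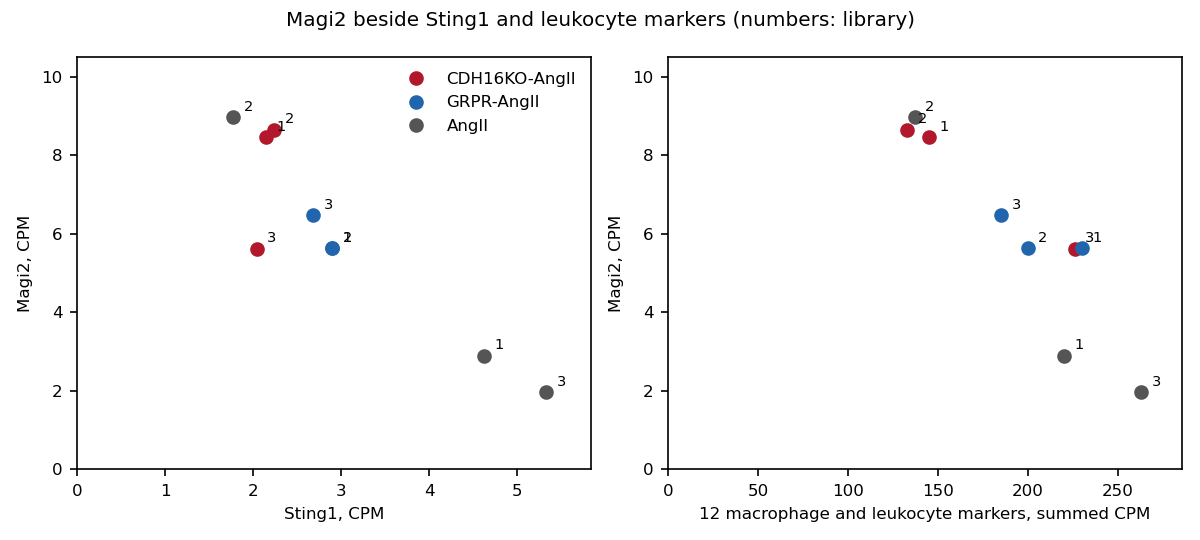
Magi2 level in CPM (vertical axis) against Sting1 in CPM (left) and against the summed CPM of 12 macrophage and leukocyte markers (right), 1 point per library with the library number. AngII libraries 1 and 3 sit at 2.89 and 1.96 CPM of Magi2 with the highest Sting1, while AngII library 2 sits at 8.97 CPM beside the CDH16KO-AngII libraries 1 and 2.

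Podxl encodes podocalyxin, the charged sialomucin that coats the apical face of foot processes and is also made by endothelium (ENSMUSG00000025608, chromosome 6, 31519488 to 31563981). It stood at 117, 126 and 92.7 CPM in CDH16KO-AngII kidneys, at 106, 131 and 132 CPM in GRPR-AngII kidneys and at 148, 137 and 126 CPM in AngII kidneys. The AngII libraries lay toward the top and CDH16KO-AngII library 3 at the bottom, and the ranges of CDH16KO-AngII and AngII met near 126 CPM. The means were 112 ± 17.4 CPM in CDH16KO-AngII kidneys, 123 ± 14.8 CPM in GRPR-AngII kidneys and 137 ± 11.1 CPM in AngII kidneys (SD, n = 3 each). In CDH16KO-AngII against AngII the log2 fold change was −0.29 (SE 0.16, 95% interval −0.63 to 0.06, edgeR adjusted p = 0.628). In the fit of all 9 libraries this was the smallest unadjusted p of the 8 genes in any comparison, 0.0915 by edgeR. Without CDH16KO-AngII library 3 the value was −0.17. In GRPR-AngII against AngII it was −0.16 (SE 0.16, edgeR adjusted p = 0.819).

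Synpo encodes synaptopodin, an actin-associated protein of foot processes (ENSMUSG00000043079, chromosome 18, 60593973 to 60660142). It stood at 56.9, 54.3 and 55.5 CPM in CDH16KO-AngII kidneys, at 38.1, 64.8 and 65.2 CPM in GRPR-AngII kidneys and at 47.2, 40.9 and 55.4 CPM in AngII kidneys. The SD was 1.31 CPM in CDH16KO-AngII kidneys, 15.5 CPM in GRPR-AngII kidneys and 7.28 CPM in AngII kidneys (n = 3 each), and the lowest and highest libraries of the series were both GRPR-AngII. The log2 fold change was 0.22 in CDH16KO-AngII against AngII (SE 0.20, edgeR adjusted p = 0.752) and 0.23 in GRPR-AngII against AngII (SE 0.20, edgeR adjusted p = 0.806). Nes encodes nestin, an intermediate filament protein that mature podocytes keep and that some vessel cells also make (ENSMUSG00000004891, chromosome 3, 87971078 to 87980451). It stood at 36.2, 24.8 and 23.5 CPM in CDH16KO-AngII kidneys, at 19.5, 27.7 and 31.3 CPM in GRPR-AngII kidneys and at 23.1, 22.8 and 31.4 CPM in AngII kidneys. CDH16KO-AngII library 1 was the highest and GRPR-AngII library 1 the lowest, so the groups overlapped. The log2 fold change was 0.13 in CDH16KO-AngII against AngII (SE 0.23, edgeR adjusted p = 0.863) and became −0.09 without CDH16KO-AngII library 1. For GRPR-AngII over AngII it was 0.02 (SE 0.23, edgeR adjusted p = 0.985), a value whose sign turned without scaling factors.

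Ptpro encodes a receptor tyrosine phosphatase of the apical podocyte membrane (ENSMUSG00000030223, chromosome 6, 137252319 to 137463233). It stood at 13.9, 11.4 and 10.2 CPM in CDH16KO-AngII kidneys, at 11.1, 7.79 and 12.5 CPM in GRPR-AngII kidneys and at 11.1, 10.2 and 12.7 CPM in AngII kidneys. The groups overlapped, and GRPR-AngII library 2 was the lowest. The log2 fold change was 0.06 in CDH16KO-AngII against AngII (SE 0.21, edgeR adjusted p = 0.932) and −0.12 in GRPR-AngII against AngII (SE 0.21, edgeR adjusted p = 0.903). Wt1 encodes a zinc finger transcription factor that podocytes need to form and to stay differentiated (ENSMUSG00000016458, chromosome 2, 105126529 to 105173612). It stood at 11.3, 11.7 and 8.70 CPM in CDH16KO-AngII kidneys, at 8.39, 8.24 and 10.6 CPM in GRPR-AngII kidneys and at 10.7, 8.09 and 10.3 CPM in AngII kidneys. Each group held at least 1 library below 9 CPM and 1 above 10 CPM. The log2 fold change was 0.12 in CDH16KO-AngII against AngII (SE 0.20, edgeR adjusted p = 0.852) and −0.10 in GRPR-AngII against AngII (SE 0.20, edgeR adjusted p = 0.917). The antisense gene Wt1os, which starts 19 bases away and shares no exonic base with Wt1, stood at 0.771 to 2.53 CPM.

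**Figure D2:**
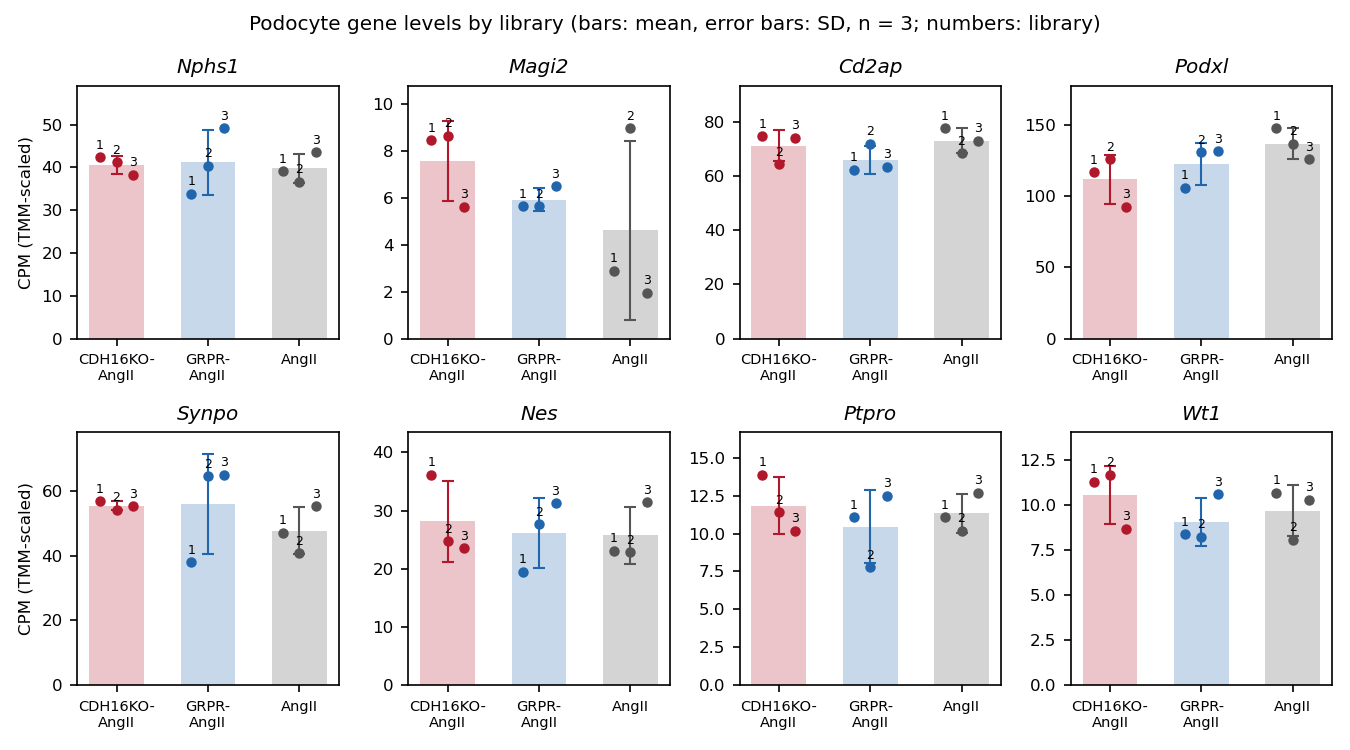
Level of each of the 8 genes in CPM (vertical axes, each from 0) in CDH16KO-AngII, GRPR-AngII and AngII libraries. Points are single libraries with their number, bars are means and error bars are SD (n = 3 per group). The points of the 3 groups overlap for every gene, and Magi2 in AngII spans 1.96 to 8.97 CPM.

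CDH16KO-AngII was set against AngII to ask what differs in Cre-positive kidneys with the same floxed allele. None of the 8 genes was called, that is, had a Benjamini-Hochberg adjusted p under 0.05 over all tested genes, by edgeR, DESeq2 or limma. None had an unadjusted edgeR p under 0.05 in the fit of all 9 libraries. Over all genes edgeR called 21 of 12507, or 0.168%, and 8.45% had an unadjusted p under 0.05. Library ranges failed to overlap for 0 of the 8 genes, against 12.2% of all genes. The median log2 fold change of the 8 was 0.09, beside 0.01 over all genes, and 6 of the 8 were positive where 51.9% of all genes were. The 95% intervals of the 7 genes in the main test reached from −0.63 to 0.66, so each was within a 2-fold change in either direction. Without AngII library 2 the values of these 7 lay between −0.29 (Podxl) and 0.12 (Synpo), and none of the 8 was called, beside 3 of all 12507 genes (edgeR adjusted p of 0.14 for Magi2 and 0.944 to 0.997 for the others).

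GRPR-AngII was set against AngII, a contrast in which Cre and the floxed allele both differ. None of the 8 genes was called by edgeR, DESeq2 or limma, and none had an unadjusted edgeR p under 0.05 in the fit of all 9 libraries. edgeR called 0 of 12507 genes (0%), with 6.74% at an unadjusted p under 0.05, and DESeq2 called 45. Ranges failed to overlap for 0 of the 8 genes and for 14% of all genes. The median over the 8 was −0.04, beside −0.01 over all genes, and 4 of 8 were positive where 49% of all genes were. The 95% intervals of the 7 genes reached from −0.58 to 0.67. Without AngII library 2 their values lay between −0.21 (Wt1) and 0.13 (Synpo), and none of the 8 was called (edgeR adjusted p of 0.979 to 0.999). These values share the AngII libraries with the comparison before, so the 2 sets are not independent.

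GRPR-AngII was also set against CDH16KO-AngII, both Cre-positive and with different floxed alleles. None of the 8 genes was called by edgeR, DESeq2 or limma, beside 18 of 12507 genes, or 0.144%, called by edgeR. None had an unadjusted edgeR p under 0.05 (6.24% of all genes did), and ranges failed to overlap for 0 of the 8 genes and 9.96% of all genes. Wt1 had the smallest unadjusted p, 0.283 by edgeR, at a log2 fold change of −0.22 (SE 0.20, edgeR adjusted p = 0.976). Podxl had 0.13, Synpo 0.01 and Nphs1 0.02, while Cd2ap had −0.11, Nes −0.11 and Ptpro −0.18. The median over the 8 was −0.11, beside −0.01 over all genes, and 3 of 8 were positive where 47.4% of all genes were. The 95% intervals of the 7 genes reached from −0.66 to 0.47. The labels do not say that libraries came from separate animals, so these p-values measure the spread between libraries.

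**Figure D3:**
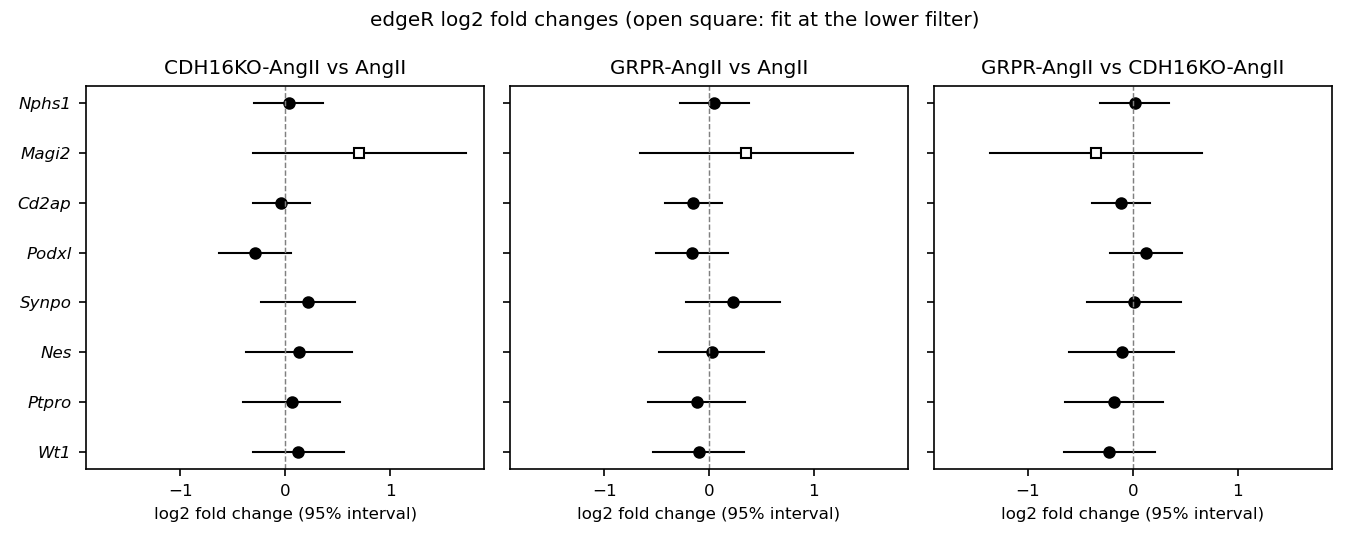
edgeR log2 fold change (horizontal axis) with its 95% interval for the 8 genes in the 3 comparisons, each named with the group on top of the ratio first. Filled circles come from the main test of 12507 genes and the open square, Magi2, from the lower filter. Every interval crosses 0, and that of Magi2 is the widest (−0.31 to 1.72 in CDH16KO-AngII against AngII).

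Of the 28 pairs of the 8 genes, those among Nphs1, Synpo and Nes had the highest r, though none passed the adjustment. Nphs1 and Synpo had Pearson's r = 0.83 and Spearman's rho = 0.73 over the 9 libraries (exact permutation p = 0.00503 and 0.0311). Nphs1 and Nes had r = 0.82 and rho = 0.90 (exact permutation p = 0.00584 and 0.00203), and Synpo and Nes r = 0.75 and rho = 0.78 (exact permutation p = 0.0206 and 0.0172). Over the 28 pairs none passed the adjustment, with adjusted p = 0.0818 by exact permutation for r of the first 2 pairs. Without the 2 libraries farthest from the median, r was 0.64 for Nphs1 with Synpo, 0.82 for Nphs1 with Nes and 0.50 for Synpo with Nes. Within groups it was 0.86, 0.83 and 0.77. Ptpro and Wt1 had r = 0.71 and rho = 0.72 (exact permutation p = 0.02 and 0.0369, adjusted 0.144 and 0.242). Their r was 0.64 without the 2 farthest libraries. Magi2 had r from −0.44 to −0.03 with the other 7 genes, but the negative sign did not hold by other measures. Its rho ran from −0.45 to 0.15, and its r without the 2 farthest libraries from −0.34 to 0.52.

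**Figure D4:**
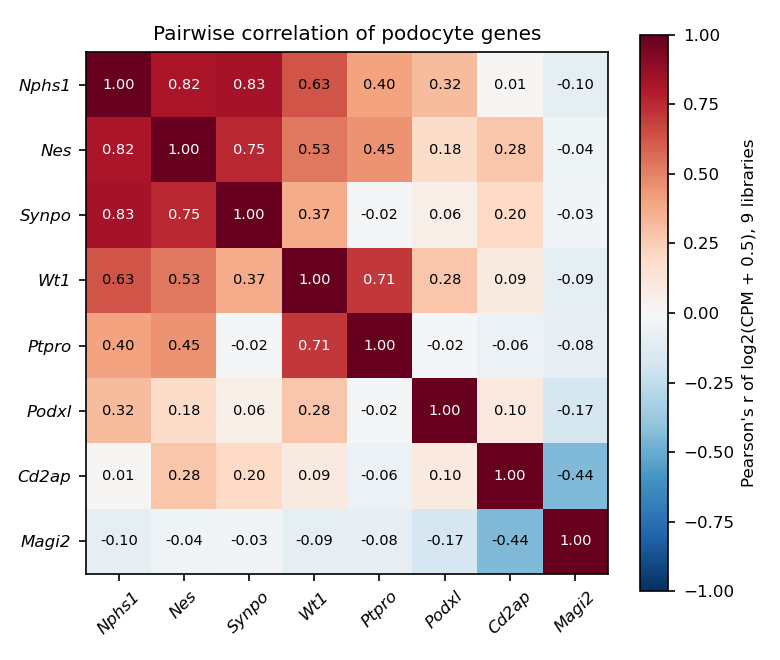
Pearson's r of log2(CPM + 0.5) between each pair of the 8 genes over the 9 libraries, in colour and as a number. Nphs1, Nes and Synpo form the block of highest values (0.75 to 0.83), and the row of Magi2 holds no positive value with another gene.

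The mean of the 7 tested genes, each standardised over libraries, gave an order of libraries rather than of groups. It was 0.78, 0.12 and −0.46 in CDH16KO-AngII, −1.18, −0.13 and 0.65 in GRPR-AngII and 0.26, −0.59 and 0.56 in AngII. The group means were 0.15 ± 0.62, −0.22 ± 0.92 and 0.08 ± 0.60 in CDH16KO-AngII, GRPR-AngII and AngII (SD, n = 3 each), so the spread within groups exceeded the distance between them. As a description over 10727 genes, the 10 whose levels were most like this mean were Klk1b27 (r = 0.91), Zfp970, Folr2, Cdc14b, Osbpl5, Ftsj3, Tcf21, Etaa1os, Hoxa4 and Scube3 (r = 0.81). Tcf21 is a transcription factor of podocytes, at rank 7 with r = 0.83. Other podocyte genes were less alike, with Clic5 at 0.15, Actn4 at 0.00 and Cdkn1c at 0.49. All r here share the same 9 libraries and their depth, and Klk1b27 and Etaa1os averaged only about 1 CPM.

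The wider podocyte and kidney lists were described by counts. Their values are of whole-kidney RNA and, also for the podocyte lists, were not limited to podocytes. Of 54 tested genes on the 4 podocyte lists, edgeR called 0 in each comparison. At an unadjusted edgeR p under 0.05 there were 3 in CDH16KO-AngII against AngII (5.56%, beside 8.45% of all genes), 2 in GRPR-AngII against AngII (3.7%, beside 6.74%) and 2 in GRPR-AngII against CDH16KO-AngII (3.7%, beside 6.24%). Median log2 fold changes in CDH16KO-AngII against AngII were −0.06 over 11 slit diaphragm partners, −0.03 over 19 cytoskeleton and adhesion genes, 0.13 over 9 transcription regulators and 0.16 over 15 secreted and membrane markers. In GRPR-AngII against AngII they were −0.18, −0.05, 0.06 and −0.04 in the same order. In GRPR-AngII against CDH16KO-AngII they were −0.13, −0.06, −0.03 and −0.11. Of the 54 genes, 29 were positive in CDH16KO-AngII against AngII (51.9% of all genes were). In GRPR-AngII against AngII 23 were (49% of all genes), and in GRPR-AngII against CDH16KO-AngII 17 (47.4% of all genes). Of the 11 slit diaphragm partners, 5, 2 and 1 were positive in the same order. No set test was run. Without AngII library 2 the medians were −0.07, −0.09, 0.13 and 0.16 in CDH16KO-AngII against AngII and −0.20, −0.08, 0.06 and −0.02 in GRPR-AngII against AngII. edgeR then called 0 of the 54 genes in both, with 2 (3.7%, beside 5.33% of all genes) and 0 (0%, beside 3.9%) at an unadjusted p under 0.05.

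Among the slit diaphragm partners, the adaptor gene Nck1, which links phosphorylated nephrin to actin, stood at 10.7 ± 2.67 CPM in CDH16KO-AngII kidneys and 13.1 ± 2.45 CPM in AngII kidneys, and Fyn, a kinase that phosphorylates nephrin, at 11.9 ± 3.64 CPM in CDH16KO-AngII kidneys and 10.3 ± 1.67 CPM in AngII kidneys (SD, n = 3 each). Iqgap1, an actin-binding scaffold, had a log2 fold change of 0.10. In GRPR-AngII against AngII, Prkci, a kinase of cell polarity, had −0.26, Pard3, its partner, −0.22 and Tjp1, the tight junction protein ZO-1, −0.19. The smallest adjusted p of that list was 0.747 by edgeR over the 3 comparisons. Without AngII library 2, Nck1 had −0.35, Fyn 0.09 and Iqgap1 0.03 in CDH16KO-AngII against AngII, and Prkci had −0.21, Pard3 −0.20 and Tjp1 −0.25 in GRPR-AngII against AngII. Of the cytoskeleton genes, Rhpn1, a rho-binding protein, had a log2 fold change of 0.55 (SE 0.24, edgeR adjusted p = 0.588) in CDH16KO-AngII against AngII and 0.71 (SE 0.24, edgeR adjusted p = 0.685) in GRPR-AngII against AngII. Its mean was 70.6 ± 16.3 CPM in CDH16KO-AngII kidneys, 79.0 ± 19.6 CPM in GRPR-AngII kidneys and 48.4 ± 10.2 CPM in AngII kidneys (SD, n = 3 each). Its fold changes over AngII without AngII library 2 were 0.43 for CDH16KO-AngII and 0.59 for GRPR-AngII on the log2 scale.

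Dach1, a nuclear regulator in podocytes, stood at 8.12 ± 0.426 CPM in GRPR-AngII kidneys against 12.1 ± 2.44 CPM in CDH16KO-AngII kidneys and 11.1 ± 1.59 CPM in AngII kidneys (SD, n = 3 each). Its log2 fold change was −0.57 (SE 0.19, edgeR adjusted p = 0.499) against CDH16KO-AngII. Col4a3 and Col4a4, chains of the glomerular and tubular basement membrane collagen, had log2 fold changes of 0.34 (edgeR adjusted p = 0.614) and 0.33 (edgeR adjusted p = 0.539) in CDH16KO-AngII against AngII, and 0.34 and 0.36 without AngII library 2. None of these genes passed the threshold by edgeR.

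Markers of the other glomerular and tubular cells were examined beside the podocyte genes. edgeR called 0 of all 113 tested list genes in each comparison, with 13 at an unadjusted p under 0.05 in CDH16KO-AngII against AngII (11.5%, beside 8.45% of all genes), 8 in GRPR-AngII against AngII (7.08%, beside 6.74%) and 7 in GRPR-AngII against CDH16KO-AngII (6.19%, beside 6.24%). Leaving out AngII library 2 gave 7 (6.19%, beside 5.33%) in the first and 4 (3.54%, beside 3.9%) in the second. DESeq2 called 3 of the 113 in CDH16KO-AngII against AngII, among them Pvalb and Itga8, beside 210 of all 12507 genes. Itga8, the integrin chain of mesangial cells, stood at 13.0 ± 3.51 CPM in CDH16KO-AngII kidneys against 6.56 ± 1.73 CPM in AngII kidneys (SD, n = 3 each), a log2 fold change of 0.99 (edgeR adjusted p = 0.215), or 0.81 without AngII library 2. Pvalb, a calcium-binding protein of the distal convoluted tubule, stood at 43.4 ± 21.6 CPM in CDH16KO-AngII kidneys against 13.3 ± 3.90 CPM in AngII kidneys (log2 fold change 1.70, edgeR adjusted p = 0.137), or 1.9 without AngII library 2 (edgeR adjusted p = 0.296). Summed glomerular endothelial markers ranged over 414 to 616 CPM in CDH16KO-AngII kidneys, 490.0 to 551 CPM in GRPR-AngII kidneys and 435 to 534 CPM in AngII kidneys. Summed mesangial and pericyte markers ranged over 248 to 359, 274 to 314 and 233 to 300 CPM in the same order. Both sets overlapped between groups, as the podocyte genes did, and the share of glomeruli in each sample was not measured.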

How the data were processed

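Kidney RNA of AngII-treated mice was sequenced in 9 libraries, 3 per group. Per the labels' protocols, total RNA was extracted with a Qiagen kit and libraries were made with a SMARTER mRNA-Seq kit. Genome builds GRCm38 and mm10 are named in the submitters' processing notes. The sources used here give no aligner, counter or strand setting. The deposited table holds, per the file headers, a count and an FPKM value per gene and library. The counts deposited by the authors are whole numbers. In every library more genes had the value 4 than 3 or 5 (799 to 966 genes at 4, 318 to 412 at 5). The tests treat the values as read counts, and dividing them by 4 was an alternative. FPKM deposited by the authors is scaled to length and library and rounded to 2 decimals.

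The main test was the quasi-likelihood F-test of edgeR 4.0.16 under R 4.3.3, with TMM scaling, 1 coefficient per group, all 9 libraries and a minimum FPKM of 1 in 3 or more libraries (12507 genes). Benjamini-Hochberg adjusted p under 0.05 was a call. Magi2 and Sting1 came from the same fit at 0.1 FPKM (20110 genes). Standard errors were derived from each fold change and its F value. Alternatives were DESeq2 1.42.0, limma 3.58.1 on log2(FPKM + 1) and log2(FPKM + 0.1), other filters and scalings, a replicate block, fits of 2 groups and leaving out each library. Correlations used log2(CPM + 0.5). They had been planned as a description, and exact permutation p-values (Python 3.11.15) were added. Scripts were tested on simulated data. Libraries of the same group differed by a chi-square of 74.2 to 366 per gene, far above the sampling noise of read counts. Each was treated as its own replicate, though such a spread cannot show that libraries came from separate animals. Totals of 40731748 to 60449117 counts set the depth.

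The 8 genes, all other lists and the tests were chosen with earlier results of these data known. Named genes were the 8, from each list up to 3 genes of smallest p per comparison and every called one, and the 10 genes most like the mean of the 7 tested ones. The Magi2 neighbours, overlapping genes, Kap, the leukocyte markers and the genes DESeq2 called were named outside that rule where it did not take them. Grpr is not analysed here. The motif search used whole RefSeq windows of 250 bases, exonic bases included. No window was found for Podxl or Wt1, and Synpo was left out of the search. Exonic bases were left out of the sequences shown, except in the Nphs1 site. List values without AngII library 2 were added after its Sting1 value was seen. Some genes that the naming rule takes are not reported here.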

Additional observations from a re-analysis of the deposited data

How the results depend on the processing

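None of the 8 genes was called in any alternative run, over 72 values from leaving out 1 library and 87 from other settings per comparison. The smallest adjusted p in CDH16KO-AngII against AngII was 0.14, for Magi2 without AngII library 2. Values close to 0 changed sign. Without scaling factors, with limma on log2(FPKM + 1) and with limma on log2(FPKM + 0.1), the log2 fold change of Nphs1 was −0.011, −0.001 and −0.001 in CDH16KO-AngII against AngII, −0.04, −0.028 and −0.034 in GRPR-AngII against AngII and −0.029, −0.027 and −0.033 in GRPR-AngII against CDH16KO-AngII. Under the same settings Nes was −0.07, −0.044 and −0.056 in GRPR-AngII against AngII and Synpo −0.029, −0.049 and −0.065 in GRPR-AngII against CDH16KO-AngII. The cause was not tested.

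Leaving out 1 library gave these ranges of log2 fold change for values that changed sign. In CDH16KO-AngII against AngII they were −0.022 to 0.103 for Nphs1, −0.082 to 0.029 for Cd2ap, −0.073 to 0.157 for Ptpro and −0.091 to 0.298 for Nes. In GRPR-AngII against AngII they were −0.095 to 0.172 for Nphs1, −0.264 to 0.057 for Ptpro and −0.123 to 0.197 for Nes. In GRPR-AngII against CDH16KO-AngII they were −0.115 to 0.139 for Nphs1, −0.106 to 0.226 for Synpo and −0.241 to 0.118 for Nes. Where only 2 libraries of a group were left, the spread was shared with the other groups.

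The count of all genes called was 210, 45 and 175 by DESeq2 in CDH16KO-AngII against AngII, GRPR-AngII against AngII and GRPR-AngII against CDH16KO-AngII. In the last it was 41 with no filter on low values and 9 in the fit of 2 groups. Leaving out 1 library gave 0 to 42, 0 to 2 and 0 to 50 calls in the same order. Of the list genes, DESeq2 called 3 in CDH16KO-AngII against AngII, and edgeR without any 1 library gave 0 calls among them.

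Groups share replicate numbers. In deviations from the group means, libraries numbered 2 correlated across groups at 0.134 to 0.298, and those numbered 3 at 0.237 to 0.283. Libraries numbered 1 correlated at −0.122 to 0.091, and libraries of different number at −0.326 to 0.235. The labels state no pairing, so the main test used none. Whether the numbers mark a pairing or a batch was not tested. With a replicate block, edgeR called 26, 0 and 13 genes, and Synpo in GRPR-AngII against CDH16KO-AngII was −0.015. The labels give no batch. With 3 libraries per group, the 95% intervals of the 7 tested genes reached from 0.635-fold to 1.59-fold, and Magi2, with 86 to 490 counts, has wider ones.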
